A study of Bos taurus with 6 samples.

Results

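Genes named ZNF followed by a number encode zinc finger proteins, a very large class of DNA-binding proteins in mammals, and 281 rows of the deposited bovine table carried such a symbol. Of these, 150 reached 1 TPM or more in 3 or more of the 6 libraries and are described here as the detected ZNF genes. TPM, the unit of the table, is a level corrected for gene length and for the total of the library. The rule that chose the genes used the level alone, so that level is a description of the choice. The remaining 131 rows did not reach it, and 93 of them were listed at 0 in all 6 libraries. Just inside the level were ZNF512B, with 1.2, 1.07 and 1.24 TPM after MT and 0 in each control library, and ZNF667, with 1.74, 1.80 and 1.15 TPM in control and 0 in each MT-treated library. Just outside were ZNF276, with 1.11, 0.86 and 1.16 TPM, and ZNF500, with 0.85, 0.98 and 0.99 TPM after MT.

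Oocytes had been matured in vitro for 22 h, in 1e-07 mol/L melatonin (MT) for the MT-treated group and without MT for the control group, and the blastocysts they gave were compared. There were 3 libraries in each group, and a library pooled 3 blastocysts, so single embryos cannot be told apart. According to the study's methods, the oocytes came from slaughterhouse ovaries, all embryos were produced in vitro with thawed semen, and the libraries of a group came from independent production runs. MT was added to the medium of the oocytes with their cumulus cells, and RNA was taken later, at the blastocyst stage.

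A zinc finger is a short loop held by a zinc ion, and a row of such loops reads a DNA sequence. Many ZNF proteins also carry a KRAB domain, which binds the corepressor TRIM28. TRIM28 then brings in the histone methyltransferase SETDB1, heterochromatin proteins of the CBX family and the NuRD deacetylase complex, and this machinery silences transposable elements and protects imprinted genes in early embryos. Other ZNF proteins have no KRAB domain and work in splicing, ribosome assembly or transcription.

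The labelled tissue was checked by marker genes. Of 7 trophectoderm markers in the table, all were above 0 in MT-treated blastocysts, and their summed level was 11372 to 11721 TPM in control and 10496 to 10850 TPM after MT. The trophectoderm regulator CDX2 was listed at 0 in each control library, against 17.2, 15.03 and 16.1 TPM after MT. KRT8 and KRT18 made up nearly all of that sum, and of the other 4 markers ELF3 had a mean of 57.7 TPM in control and 11.3 TPM after MT, whereas GATA2 had 7.07 and 49.1 TPM, GATA3 19.5 and 36.7 TPM and TFAP2C 22.4 and 42.4 TPM. Of 6 inner cell mass markers, with sums of 417 to 425 TPM in control and 301 to 303 TPM after MT, NANOG was listed at 0 in each control library and had a mean of 8.68 TPM after MT. The mean of SPIC was 174 TPM in control and 76.0 TPM after MT, that of KLF17 was 44.6 and 5.53 TPM, and that of POU5F1 was 190 and 193 TPM. SOX2 had 0.0067 and 6.54 TPM, and PRDM14 had 12.8 and 12.1 TPM. Of 5 hypoblast markers, summing to 0.20 to 0.44 TPM in control and 61.2 to 69.6 TPM after MT, 4 were listed at 0 in control. Of 7 cumulus and granulosa markers, FSHR alone exceeded 0.01 TPM, at 15.03 to 19.2 TPM across the libraries, and 10 maternal oocyte transcripts summed to 0 TPM in control and 1.03 to 1.5 TPM after MT. Genes that every cell uses were also listed at 0 in control, for example POLR3K, a subunit of RNA polymerase III, against 293, 297 and 294 TPM after MT. Of the 11953 genes at 1 TPM or more in 3 or more libraries, 33.8% were listed at 0 in each control library and 3.01% in each MT-treated library. Whether the control values are a complete quantification was not tested, and each 0 in control is subject to that limit. So is each control value above 0, and each fall after MT, since TPM is corrected for the total of the library. A ZNF gene at 0 in a group is therefore only said to be listed at 0, and the part of these group differences in the ZNF values was not tested. In pooled embryos, fewer cells of a type and less RNA per cell cannot be told apart.

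The detected ZNF genes fell into separate sets by the libraries in which they were present. In control blastocysts, 73 to 77 of the 150 genes were above 0, whereas 142 or 143 were above 0 in MT-treated blastocysts. Of the 11953 genes of the whole table that met the same level, here called the tested genes, 63.6% to 63.9% were above 0 in control libraries and 96.5% or 96.6% in MT-treated libraries. In what follows a gene is called present in a library where it was listed at 1 TPM or more. Only 49 genes (32.7%) had 1 TPM or more in all 6 libraries, against 50.1% of the tested genes. A further 84 genes (56.0%, against 42.5% of all tested genes) reached 1 TPM in the 3 MT-treated libraries and in no control library, and 71 of them, 47.3% of the 150 (against 33.8% of all tested genes), were listed at 0 in each control library. The reverse pattern was seen for 14 genes (9.33%, against 5.53%), of which 7, 4.67% of the 150 (against 3.01%), were listed at 0 in each MT-treated library. The other 3, ZNF566, ZNF704 and ZNF800, reached 1 TPM after MT and in 1 or 2 control libraries. These shares are a description with no test.

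**Figure D1:**
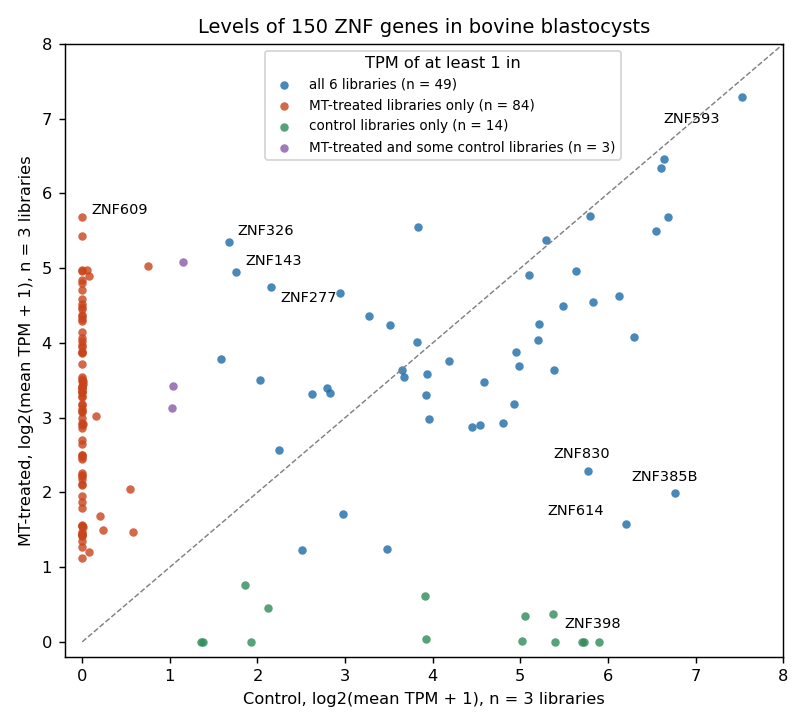
Mean level of each of the 150 detected ZNF genes in the 3 control (horizontal) and 3 MT-treated libraries (vertical), as log2(mean TPM + 1), with colours for the libraries in which the gene reached 1 TPM and a dashed line of equal levels. The 84 genes present in the MT-treated libraries alone lie near the left edge, and the 14 present in control alone lie near the bottom.

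The summed level of the family was nevertheless similar. The 150 genes summed to 2069, 2057 and 2078 TPM in control and to 2082, 2076 and 2088 TPM after MT, so the groups overlapped. These sums were 0.220% to 0.222% of all listed TPM in control and 0.228% to 0.229% in MT-treated libraries. The 49 genes present in all libraries contributed 1713, 1718 and 1715 TPM in control and 1108, 1102 and 1119 TPM in MT-treated blastocysts, and genes present in the MT-treated libraries alone made up most of the rest there. ZNF593, which encodes a factor of ribosome assembly, had the highest level of the family in every library.

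The other families of zinc finger genes, picked by symbol after the values were seen, were set beside the ZNF genes. Of 22 tested ZBTB genes, which join zinc fingers to a BTB domain, 31.8% were present in all libraries and 54.5% in the MT-treated libraries alone. In each control library 45.5% of the ZBTB genes were listed at 0, against 47.3% of the ZNF genes. Of 11 tested ZFP genes, the same share of 45.5% was seen for both patterns. Of 5 tested ZSCAN and ZKSCAN genes, 1 was present in all libraries and 3 in the MT-treated libraries alone.

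**Figure D2:**
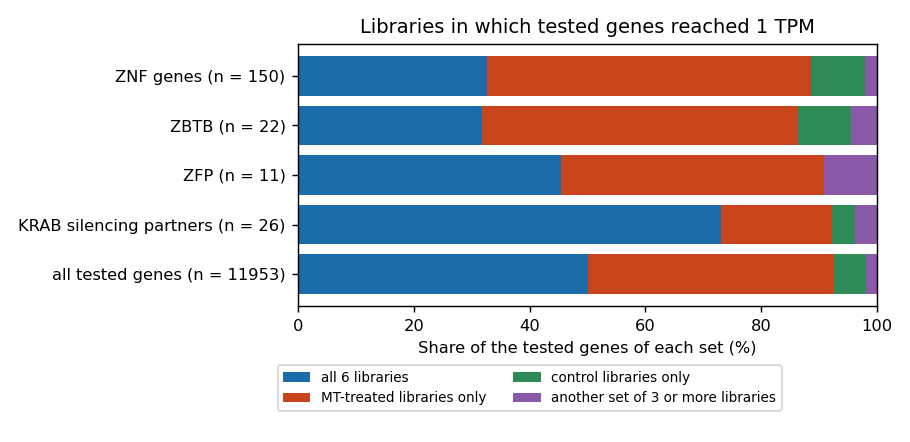
Share of tested genes (horizontal axis, %) by the libraries in which they reached 1 TPM, for the ZNF genes, the ZBTB and ZFP genes, the partners of KRAB silencing and all tested genes. ZNF genes had 32.7% of genes in all 6 libraries and KRAB partners 73.1%, against 50.1% of all tested genes.

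Listing at 0 in control was more common among genes of low level, so the ZNF genes were set beside all tested genes in the same range of MT-treated level. At a mean of 1 to 5 TPM in MT-treated blastocysts, 24 of 37 ZNF genes (64.9%) were listed at 0 in each control library, against 54.5% of all tested genes. At 5 to 20 TPM these shares were 53.7% of 67 ZNF genes and 47.2%, and at 20 to 100 TPM they were 35.5% of 31 ZNF genes and 23.8%. The share was higher among ZNF genes in each of the 3 ranges of MT-treated level, within which levels were not matched further. Genes listed at 0 in control passed the level through the MT-treated group alone, so these shares come from the values used to choose the genes. In the reverse direction, genes listed at 0 in each MT-treated library were 3 of 15 ZNF genes at a control mean of 1 to 5 TPM (against 8.25% of all tested genes), 0 of 18 at 5 to 20 TPM (6.46%) and 4 of 30 at 20 to 100 TPM (5.89%), so the order was not the same in each range. These shares carry no test.

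**Figure D3:**
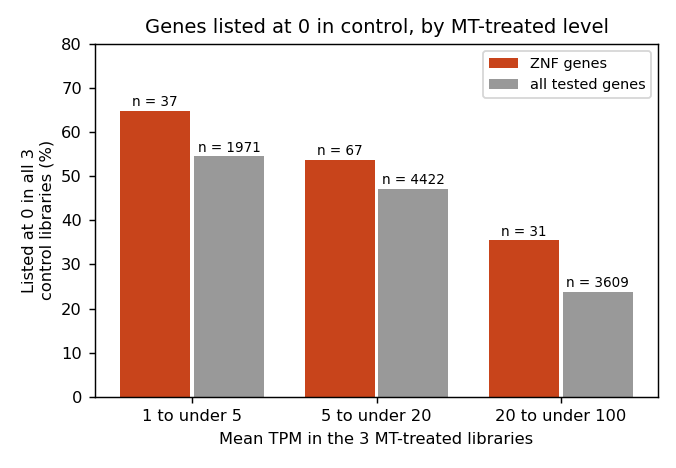
Share of genes listed at 0 in all 3 control libraries (vertical axis, %), by mean TPM after MT (horizontal axis), for ZNF genes and all tested genes, with the number of genes above each bar. Bars fall from 64.9% to 35.5% for ZNF genes and from 54.5% to 23.8% for all tested genes.

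Differences between the groups were tested with limma on log2(TPM + 1), with Benjamini-Hochberg adjustment over all 11953 tested genes and a threshold of 0.05. Of the 150 ZNF genes, 101 were called higher after MT and 47 lower, together 148, where 61.6% of all tested genes were higher, 34.1% were lower and 95.7% were called in either direction. Genes that passed the level through 1 group alone had to differ, so this count supports nothing about the family. With quantile normalization, which gives all libraries the same distribution, 62 ZNF genes were higher and 73 lower (5550 and 5311 of all tested genes). This scaling gives the many control values of 0 a shared value above 0, so that genes listed at 0 in control can be called lower. The median log2 fold change was 1.72 over the ZNF genes and 1.12 over all tested genes, and -0.021 and 0.042 after quantile normalization. The 3 values of one group lay apart from the other for 148 ZNF genes, where 96.1% of all tested genes did so. With 3 libraries against 3, the smallest p that an exact permutation test (two-sided) of 1 gene allows is 0.1. The libraries of a group lay close together. Over 5947 tested genes with a control mean of 5 TPM or more, the standard deviation had a median of 2.73% of the mean. After MT this share was 4.48%, over 9280 such genes. Whether so small a spread holds the variation between production runs was not tested. Each SE and p-value from limma given here rests on that spread.

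The 49 ZNF genes present in all libraries could differ in either direction. Their control values are subject to the limit on completeness given above. Of these, 14 rose and 33 fell after MT (limma, adjusted over all tested genes), together 47, where 36.4% of the 5988 genes present in all libraries rose, 55.6% fell and 92% were called. At a change of 2-fold or more on the log2(TPM + 1) scale, 8 rose and 19 fell, against 15.7% and 27.2% of those 5988 genes. Their median log2 fold change was -0.62, and that of the 5988 genes was -0.27. Centring each library on the median of those 5988 genes removed a shift of -0.48 between the groups, after which 23 of the 49 were higher and 25 lower and the medians were -0.14 and 0.21. Of the 5988 genes, 3211 were higher and 2312 lower after centring. Quantile normalization gave 9 higher and 35 lower of the 49, against 1987 and 3544 of the 5988. Under centring 9 of the 49 genes turned their sign, all with a log2 fold change between -0.48 and 0 before it. Quantile normalization turned the sign of 9 of the 49 as well, 8 of them called in the new direction, and of 36 of all 150 ZNF genes, 32 of them called. Among these were ZNF329, ZNF575, ZNF335, ZNF281 and ZNF483, called higher as deposited, with log2 fold changes from -1.80 to -1.06 after quantile normalization.

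**Figure D4:**
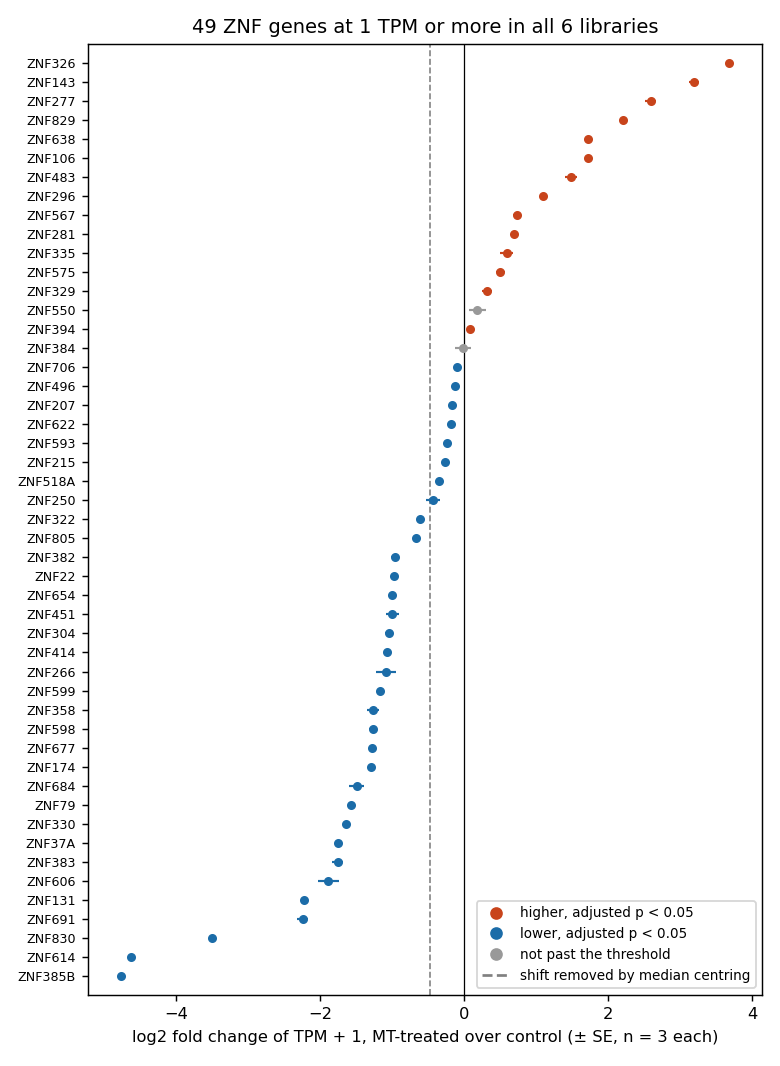
Log2 fold change of TPM + 1 (MT-treated over control, horizontal axis) with its standard error for the 49 ZNF genes present in all 6 libraries, coloured by limma's call. The dashed line is the shift of -0.48 that median centring removes, and 9 genes lie between it and 0.

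The 6 largest rises among these 49 genes were in ZNF326, ZNF143, ZNF277, ZNF829, ZNF638 and ZNF106. ZNF326, a subunit of the DBIRD complex that couples transcription to splicing, had 2.20, 2.31 and 2.07 TPM in control and 38.2, 40.5 and 40.4 TPM after MT, a log2 fold change of 3.67 (SE 0.04, adjusted p = 2.50e-09 by limma). ZNF143, an activator that binds many promoters and chromatin loop anchors, had 2.34, 2.09 and 2.72 TPM in control and 30.1, 30.5 and 29.0 TPM after MT, a log2 fold change of 3.19 (SE 0.07, adjusted p = 4.03e-08 by limma). For both genes all MT-treated values lay far above all control values. ZNF277 rose from 3.46 ± 0.452 to 25.8 ± 0.526 TPM, and ZNF829, a KRAB protein, rose from 2.003 ± 0.0764 to 12.8 ± 0.384 TPM (SD, n = 3 each), although ZNF829 had a log2 fold change of -0.020 after quantile normalization. ZNF638, a nuclear RNA-binding protein that takes part in silencing foreign DNA, rose from 6.67 ± 0.160 to 24.4 ± 1.62 TPM, and ZNF106, an RNA-binding protein, rose from 13.3 ± 0.151 to 46.0 ± 1.66 TPM (SD, n = 3 each). The 6 were chosen among called genes whose groups did not overlap, as was the case for 92.7% of the 5988 genes present in all libraries.

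The largest falls among ZNF genes present in all libraries were chosen in the same way, from called genes whose groups did not overlap. ZNF385B, a member of a small family with RNA-binding type fingers, had 108, 106 and 109 TPM in control and 2.96, 3.03 and 2.99 TPM after MT, a log2 fold change of -4.77 (SE 0.03, adjusted p = 5.70e-10 by limma). ZNF614, a KRAB protein, had 71.7, 74.6 and 71.7 TPM in control and 1.89, 2.07 and 2.03 TPM after MT, a log2 fold change of -4.62 (SE 0.04, adjusted p = 7.17e-10 by limma). ZNF830, a splicing-related protein, had 51.8, 54.3 and 55.4 TPM in control and 3.86, 4.06 and 3.68 TPM after MT. The fall of each of these genes was kept under centring and quantile normalization. ZNF131, which carries a BTB domain, fell from 77.8 ± 0.865 to 15.97 ± 1.002 TPM, ZNF691 fell from 10.2 ± 0.320 to 1.37 ± 0.229 TPM, and the KRAB gene ZNF606 fell from 26.9 ± 1.54 to 6.63 ± 1.44 TPM (SD, n = 3 each).

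**Figure D5:**
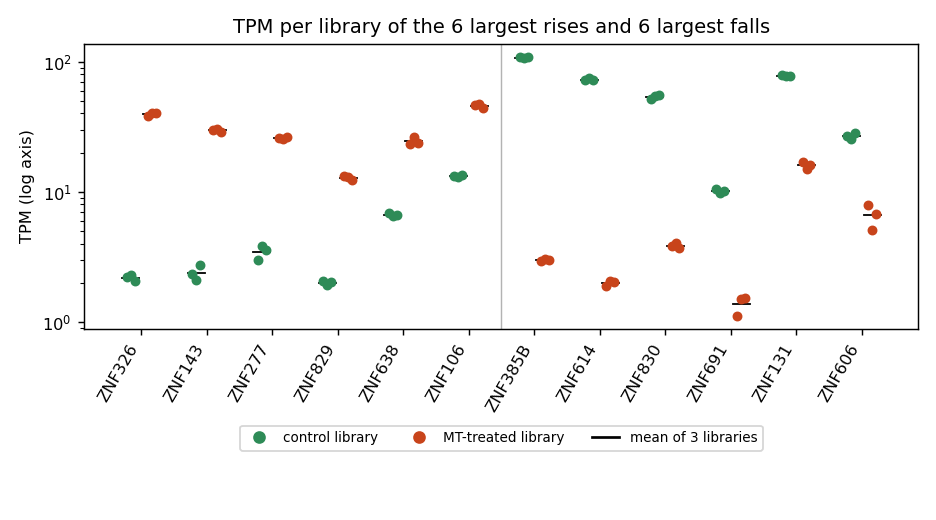
TPM on a log axis in each control and MT-treated library for the 6 largest rises (left) and 6 largest falls (right) among ZNF genes present in all libraries, with the mean of 3 libraries as a line. Genes were chosen among those whose groups did not overlap. ZNF326 had 2.20, 2.31 and 2.07 against 38.2, 40.5 and 40.4 TPM. ZNF385B had 108, 106 and 109 against 2.96, 3.03 and 2.99 TPM.

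Of the 6 ZNF genes with the highest mean over all 6 libraries, 3 had small differences. ZNF593 had 179, 185 and 188 TPM in control and 152, 152 and 163 TPM after MT, a log2 fold change of -0.24 that was 0.24 after centring and -0.0047, no longer called, after quantile normalization (adjusted p = 0.882 by limma). ZNF207, which binds the spindle checkpoint protein BUB3, had 101, 96.9 and 97.0 TPM in control and 84.95, 88.7 and 88.2 TPM after MT, a log2 fold change of -0.17 that was 0.31 after centring and 0.11 after quantile normalization. ZNF215, which has SCAN and KRAB domains and lies in an imprinted region, had 96.8, 97.3 and 96.0 TPM in control and 81.5, 79.7 and 79.2 TPM after MT, a log2 fold change of -0.27 that was 0.21 after centring and -0.00091, no longer called, after quantile normalization (adjusted p = 0.963 by limma). The direction of these 3 genes thus depended on the scaling, whereas the other 3, ZNF451, ZNF304 and ZNF385B, were lower under centring and quantile normalization as well. ZNF385B, described above, was among the 6 through its level in control. ZNF451, a SUMO ligase, had 107, 111 and 87.4 TPM in control and 50.8, 48.7 and 51.7 TPM after MT. ZNF304, a KRAB protein known to recruit TRIM28, had 88.7, 94.3 and 94.1 TPM in control and 41.5, 44.0 and 47.0 TPM after MT.

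The smallest differences were in ZNF384, ZNF394 and ZNF706. ZNF384, a DNA-binding regulator, had 11.5, 11.7 and 11.4 TPM in control and 9.40, 11.9 and 13.1 TPM after MT, with overlapping groups and a log2 fold change of -0.02 that did not pass the threshold (adjusted p = 0.870 by limma). It was 0.46 after centring and -1.69 after quantile normalization, and passed the threshold under both (adjusted p = 0.0063 and 0.0013 by limma). ZNF550 also did not pass it, with 13.5, 13.9 and 12.03 TPM in control and 13.1, 17.6 and 14.7 TPM after MT, a log2 fold change of 0.18 that was 0.66 after centring and -0.78 after quantile normalization, called under both (adjusted p = 0.0013 and 0.036 by limma). These are the 2 ZNF genes that were not called on the TPM as deposited. ZNF394, with SCAN and KRAB domains, had 38.4, 38.3 and 37.8 TPM in control and 41.8, 39.3 and 40.2 TPM after MT, and its call at an adjusted p of 0.0351 (limma) was lost when any 1 of 5 libraries (all but MT-treated replicate 2) was left out, with adjusted p-values up to 0.0945 by limma. ZNF706, a small single-finger protein, had 55.1, 55.2 and 53.3 TPM in control and 51.6, 51.0 and 50.5 TPM after MT, a log2 fold change of -0.09 that was 0.39 after centring.

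Several ZNF genes listed at 0 in each control library had a high level in MT-treated blastocysts. ZNF609, a partner of the Integrator complex and of the cohesin loader NIPBL, had 51.8, 53.5 and 45.4 TPM after MT. ZNF705A, a KRAB protein, had 42.7, 42.4 and 41.1 TPM there. ZNF438 had 36.6, 30.2 and 24.4 TPM, and ZNF892 had 19.2, 35.8 and 35.5 TPM, a wider spread than in the other genes. Of the 71 genes listed at 0 in control, 11 had an MT-treated mean of 20 TPM or more, and the median of the means was 8.66 TPM.

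Fewer genes were listed at 0 in each MT-treated library, and 4 of these 7 had a control mean above 20 TPM. ZNF398 had 60.9, 57.1 and 57.7 TPM in control, ZNF793 had 52.9, 48.0 and 54.9 TPM and ZNF621 had 55.0, 46.4 and 51.9 TPM. All encode KRAB proteins. ZNF804A, known from genetic studies of schizophrenia, had 38.01, 35.04 and 50.6 TPM. The other 3 of the 7 such genes were ZNF283, ZNF555 and ZNF667, with control means from 1.56 TPM upward and none reaching 5 TPM.

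Among ZNF genes with roles in RNA, ribosomes and translation, 9 of 10 listed genes were detected, and 8 of the 9 were present in all libraries. In this group 4 rose and 5 fell (limma), where 36.4% of the 5988 genes present in all libraries rose and 55.6% fell. The median log2 fold change was -0.17, against -0.27 over those 5988 genes and 1.12 over all tested genes. The rises were in ZNF326, ZNF277, ZNF638 and ZNF385A, of which ZNF385A reached 1 TPM in the MT-treated libraries alone and so had to rise to be detected. The falls were in ZNF830, ZNF598, ZNF593, ZNF622 and ZNF207, but after centring 7 were higher and 2, ZNF830 and ZNF598, lower (3211 and 2312 of the 5988 genes), and after quantile normalization ZNF385A had a log2 fold change of -1.37. ZNF598, a ubiquitin ligase that senses collided ribosomes, had 4.67, 4.95 and 4.39 TPM in control and 1.43, 1.35 and 1.28 TPM after MT. ZNF622, a factor of the large ribosomal subunit, had 34.7, 32.0 and 33.1 TPM in control and 29.4, 28.6 and 29.3 TPM after MT. Its log2 fold change of -0.19 was 0.29 after centring and -0.0010, no longer called, after quantile normalization (adjusted p = 0.978 by limma). ZNF346, which binds double-stranded RNA, was the undetected member and was listed at 0 in all libraries.

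Among ZNF genes that work with chromatin factors, 13 of 22 listed genes were detected, and 8 of the 13 were present in the MT-treated libraries alone. The group had 11 rises and 2 falls with a median log2 fold change of 1.87, where 61.6% of all tested genes rose, 34.1% fell and the median was 1.12, and the 8 genes present after MT alone had to rise to be detected. After quantile normalization 5 were higher and 8 lower, against 5550 and 5311 of the 11953 tested genes. The 8 included ZNF592, ZNF644 and ZNF652, listed at 0 in each control library, where this scaling sets a shared value above 0. ZNF410, which is known to activate CHD4, was listed at 0 in each control library and had 22.4, 23.7 and 22.8 TPM after MT. ZNF687, which is known to work in a complex with ZNF592 and ZNF532, was listed at 0 in control and had 16.4, 15.5 and 13.8 TPM after MT. ZNF592 had 2.88, 2.78 and 2.95 TPM and ZNF532 had 1.91, 1.77 and 2.02 TPM after MT, and both were at or below 0.01 TPM in every control library, with log2 fold changes of -0.14 and -0.54 after quantile normalization. These 3 genes thus reached 1 TPM in the MT-treated libraries alone, and other members of the complex were not examined. The falls were in ZNF451 and in ZNF518A, a partner of histone methyltransferases, which had 14.4, 13.9 and 14.6 TPM in control and 10.9, 11.3 and 10.7 TPM after MT, a log2 fold change of -0.35 that was 0.13 after centring and -2.17 after quantile normalization. ZNF445, a KRAB protein that protects imprints, and ZNF217, a corepressor component, were listed at 0 in all libraries. ZNF274, which recruits SETDB1, had 0.74, 4.14 and 4.10 TPM after MT and 0 in control, and missed the level by 1 library.

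Of 9 developmental regulators listed, 5 were detected, and 4 of them rose, where 61.6% of all tested genes did. After centring all 5 were higher, as were 8412 of the 11953 tested genes. After quantile normalization 3 were higher and 2, ZNF384 and ZNF292, lower, against 5550 and 5311 of the tested genes. Of the 4 that rose as deposited, ZNF423, ZNF148 and ZNF292 were present in the MT-treated libraries alone and so had to rise to be detected. ZNF423, a partner of SMAD proteins in BMP signaling, was listed at 0 in control and had 29.0, 26.5 and 25.5 TPM after MT. ZNF148, which binds GC-rich promoters, was also listed at 0 in control and had 17.5, 18.5 and 20.1 TPM. ZNF296, known from pluripotent cells and early embryos, was present in all libraries and rose from 8.63 ± 0.291 to 19.6 ± 0.720 TPM (SD, n = 3 each), with a log2 fold change of 1.10 (SE 0.04, adjusted p = 4.79e-07 by limma). ZNF292 had 1.66, 1.62 and 1.77 TPM after MT and 0 in control, and after quantile normalization its log2 fold change was -0.40.

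Of a list of 16 ZNF genes with a SCAN domain, through which these proteins pair, 13 were in the table and 8 were detected. The list did not hold ZNF215, described above. In it 5 rose and 3 fell, where 61.6% of all tested genes rose and 34.1% fell, and 6 were higher and 2 lower after centring (8412 and 3038 of all tested genes). Of the 5 that rose, 4 were present in the MT-treated libraries alone and so had to rise to be detected, and ZNF213, one of the 3 that fell, was present in control alone and had to fall. ZNF24 had 14.5, 14.8 and 13.8 TPM and ZNF202, known as a repressor of lipid metabolism genes, had 10.6, 10.2 and 11.1 TPM after MT, and both were listed at 0 in control. ZNF174 fell from 30.7 ± 0.265 to 11.9 ± 0.175 TPM and ZNF213 fell from 2.64 ± 0.0208 to 0.697 ± 0.0404 TPM (SD, n = 3 each). ZNF75D, listed under 2 identifiers of which one was at 0 throughout, had 1.87, 4.88 and 9.78 TPM after MT and 0 in control. This was the widest spread among ZNF genes with a group mean of 5 TPM or more, with a coefficient of variation of 72.5%, where the median was 5.55% over 99 such genes in MT-treated and 2.79% over 51 in control blastocysts.

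The proteins that carry out KRAB silencing were examined as a list of 27 genes, of which 26 were tested. In this list 12 were higher and 12 lower (limma), where 61.6% of all tested genes were higher and 34.1% lower, and 17 were higher and 6 lower after centring, against 8412 and 3038 of the 11953 tested genes. The median log2 fold change was 0.06, against 1.12 over all tested genes and -0.27 over the 5988 present in all libraries, as were 19 of the 26 partners. Of these 19, 7 were higher and 11 lower, where 36.4% and 55.6% of the 5988 genes were. A further 5 of the higher partners and 1 of the lower ones, CHD3, passed the level through 1 group alone and so had to differ. TRIM28, which KRAB domains bind, had 96.3, 95.3 and 99.7 TPM in control and 92.8, 91.6 and 94.7 TPM after MT. Its log2 fold change of -0.06 did not pass the threshold (adjusted p = 0.0543 by limma). It was 0.42 after centring and 0.22 after quantile normalization, called higher under both (adjusted p = 3.14e-06 and 0.00019 by limma). SETDB1 was listed at 0 in control and had 4.74, 4.38 and 4.12 TPM after MT. Of the heterochromatin proteins, CBX1 had 25.6, 27.2 and 26.0 TPM in control and 5.35, 5.47 and 5.16 TPM after MT, and CBX5 had 135, 137 and 129 TPM in control and 62.5, 61.7 and 63.7 TPM after MT. CBX3 had 69.0, 72.9 and 70.1 TPM in control and 50.6, 53.7 and 54.3 TPM after MT, a log2 fold change of -0.41 that was 0.07 and not called after centring (adjusted p = 0.119 by limma).

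Several subunits of NuRD, the deacetylase complex that TRIM28 recruits, were in this list. GATAD2B, with 42.8, 46.4 and 40.6 TPM, MBD3, with 26.0, 23.5 and 22.8 TPM, and MTA2, with 21.3, 22.03 and 22.5 TPM after MT, were listed at 0 in each control library. GATAD2A, the close relative of GATAD2B, had 38.7, 37.2 and 44.6 TPM in control and 4.84, 4.73 and 5.78 TPM after MT. CHD3 had 4.39, 2.41 and 4.19 TPM in control and 0 in each MT-treated library, whereas CHD4, which also drives this complex, had 4.25, 4.18 and 4.34 TPM in control and 11.01, 11.4 and 11.3 TPM after MT. GATAD2B, MBD3, MTA2 and CHD3 passed the level through 1 group alone, so their directions were set by the choice of genes. The log2 fold change of CHD4 was -1.11 after quantile normalization, against 1.22 as deposited. Of the other subunits in the list, HDAC1 had a mean of 227 TPM in control and 154 TPM after MT, RBBP4 130 and 106 TPM and RBBP7 107 and 102 TPM. HDAC2 had 16.1 and 41.8 TPM and MTA1 2.71 and 3.96 TPM. After centring, RBBP4 and RBBP7 had log2 fold changes of 0.19 and 0.41, and MTA1 had -1.73 after quantile normalization.

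ZNF genes often lie side by side in clusters of related copies. By symbol, 145 of the 150 genes matched a protein-coding gene of the RefSeq annotation of ARS-UCD2.0, used here only for the order of genes, and 11 pairs of detected ZNF genes were direct neighbours. Both genes of 4 pairs were present in the MT-treated libraries alone, for example ZNF655, with 19.5, 20.1 and 19.3 TPM, and ZNF789, with 34.0, 25.4 and 26.7 TPM there. In 2 pairs one neighbour was present in control alone and the other in the MT-treated libraries alone. ZNF2 had 31.7, 31.6 and 31.3 TPM in control and at most 0.02 TPM after MT, whereas its neighbour ZNF892 was listed at 0 in control. ZNF787 had 3.52, 3.19 and 3.30 TPM in control and 0.31, 0.45 and 0.35 TPM after MT, whereas its neighbour ZNF444 was listed at 0 in control. Of the 11 pairs, 36.4% had a shared pattern, against 47.0% of 5552 pairs of neighbouring tested genes. Reads that match several related ZNF genes can be counted for either or for none, so values of close copies are uncertain.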

How the data were processed

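RNA from 6 pools of bovine blastocysts was sequenced. Per the labels and the paper, the authors used FastQC 0.11.9, STAR 2.7.9a and featureCounts (Subread 1.6.3), and deposited TPM per gene and library. The labels name the genome ARS-UCD1.2 and a TruSeq kit, while the paper names ARS-UCD1.3 and Smart-seq2. The treatment of reads that map to several genes is not given in the sources used here. TPM keeps no counts, so no counting interval is given, and the sequencing depth of the libraries was not used here.

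Groups came from the sample titles. The MT concentration, maturation time and pool size came from the paper. Detected genes (1 TPM in 3 libraries) were fitted on log2(TPM + 1) with limma 3.58.1 in R 4.3.3, using an intensity trend and Benjamini-Hochberg adjustment at 0.05. The script was tested on data with known changes before use. Figures were made with matplotlib 3.10.9.

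The ZNF genes and gene lists were chosen with earlier results of these data known, and the lists come from general knowledge. Named genes were the most abundant, the largest and smallest changes, the highest among genes at 0 in a group, those at the edge of the level, and the largest changes of each list. The largest changes of ZNF genes were taken from called genes whose groups did not overlap. Further ZNF genes, CBX3, CBX5, CHD4, HDAC1, HDAC2, RBBP4, RBBP7, MTA1, the markers and POLR3K were named after their values were seen. Per the paper, treatments were set up side by side in each production run, so libraries of both groups may share runs, but no label ties a replicate number to a run. Deviations of same-numbered libraries from the group means correlated at -0.0115, -0.00068 and 0.0588 across genes, and the libraries were treated as unpaired.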

Additional observations from a re-analysis of the deposited data

How the results depend on the processing

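The numbers of ZNF genes and KRAB partners called were recomputed under each alternative. ZNF genes called higher, 101 as reported, were 62 with quantile normalization, 67 when 5 TPM was required and 14 among genes present in all 6 libraries, the last 2 with fewer genes tested. ZNF genes called lower, 47 as reported, were 73 with quantile normalization, which gives the many control values of 0 a shared value above 0. Called higher KRAB partners were 7 among genes present in all 6 libraries, and called lower ones were 6 after centring. Without each library in turn, 100 to 101 ZNF genes were higher and 47 were lower, and 12 to 13 KRAB partners were higher and 11 to 13 lower. The replicate block left 100 ZNF genes higher and 47 lower, and no other alternative moved these numbers by over 1.5 times.

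Median centring turned the log2 fold change of TRIM28 to 0.42, ZNF207 to 0.31, ZNF215 to 0.21, ZNF384 to 0.46, ZNF518A to 0.13, ZNF593 to 0.24 and ZNF706 to 0.39. Quantile normalization turned that of TRIM28 to 0.22, ZNF207 to 0.11, ZNF512B to -0.55, ZNF706 to 0.22 and ZNF829 to -0.020, and turned the sign of 36 of the 150 ZNF genes, where centring turned 9. Quantile normalization gave ZNF384 -1.69, which was then called. Without each library in turn, its value lay between -0.11 and 0.10, the latter without MT-treated replicate 1. With the replicate block ZNF394 was no longer called and TRIM28 was called lower, whereas centring and quantile normalization called TRIM28 higher. TRIM28 was also called lower without control replicate 2 (adjusted p = 0.0483 by limma) or MT-treated replicate 3 (0.0458). The sequencing depth was not used here, so counting error was not weighed. The fit without a filter holds many genes with no spread and is unreliable.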
